A study of Homo sapiens with 8 samples.

Results

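The 10 genes described here encode the receptor of interleukin-7 (IL7R and IL2RG), the Janus kinases JAK1, JAK2 and JAK3, the transcription factors STAT3, STAT5A and STAT5B, and the feedback inhibitors CISH and SOCS1. They were chosen by name from textbook knowledge of the pathway, with earlier results of these data known. All 10 were found among the 18133 genes of the expression table. All 10 also had a mean of at least 10 normalized counts over the libraries, the minimum for testing, which 13885 genes met. Messenger RNA was sequenced from DND41 cells, a human line established from a T-cell acute lymphoblastic leukemia (abbreviated T-ALL), in which doxycycline had switched on a short hairpin RNA (shRNA) for 72 h. The hairpin was the SIRT1 construct sh1 in 3 libraries (A, B and C), the SIRT1 construct sh3 in 3 libraries (A, B and C), and a control hairpin in 2 libraries (A and C). Doxycycline, the culture medium with serum and the cell line were shared by every group, and the labels describe no group without a hairpin and no added cytokine. By title and genotype the sh3 library C belongs to the SIRT1 knockdown, but its description calls it a control, so results with sh3 are also given without it.

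Interleukin-7 (IL7) is bound by the alpha chain encoded by IL7R, which pairs with the common gamma chain encoded by IL2RG. The alpha chain carries JAK1 and the gamma chain JAK3, and these kinases phosphorylate the receptor and then STAT5A and STAT5B, which form dimers, enter the nucleus and bind DNA. CISH and SOCS1 are textbook targets of STAT5 whose proteins damp the same receptors, and the pathway is known for keeping developing T cells alive and for activating mutations of IL7R, JAK1, JAK3 and STAT5B in T-ALL. JAK2 and STAT3 serve mainly other cytokine receptors.

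SIRT1 messenger RNA, the target of the hairpins, was at 1299.7 ± 36.5 normalized counts in sh1 libraries and 1165 ± 60.1 in sh3 libraries (n = 3 each, SD), against 1832 ± 123 in the controls (SD, n = 2), and all 6 knockdown libraries were below both controls. Library totals lay between 33087820 and 34072666 normalized counts. Across all genes tested sh3 C correlated at a Spearman rho of at least 0.9955 with the other sh3 libraries and of at most 0.9925 with the controls. The summed level of 7 T cell markers was 58841 to 61844 in sh1 libraries and 51341 to 52070 in sh3 libraries, against 70923 to 74633 in the controls. For the mean of both constructs against control, limma called all 7 lower at an adjusted p under 0.05, beside 6.19% of all genes tested. Of 8 cortical thymocyte markers 1 was called higher, beside 6.55% of all genes, and 5 were called lower in the same comparison. Their sum, mostly RAG1, was 82555 to 86415 with sh1 and 82032 to 85111 with sh3, against 79299 to 81787 in the controls. How these marker calls hold with libraries left out is not given here. Of other cell types, the myeloid markers CD14 and CD33, the B cell factor PAX5 and the erythroid gene HBB were under 10 in every library. The summed B cell list, mostly CD79A, was 18979 to 20678 with sh1 and 25480 to 26905 with sh3, against 25356 to 27102 in the controls. The summed myeloid list, mostly FCGR2A, was 58.7 to 103 with sh1 and 45.3 to 87.9 with sh3, against 295 to 321 in the controls, and the NK list was 1479.9 to 1583 with sh1 and 1527 to 1622 with sh3, against 1653 to 1693. In a bulk sample, fewer cells of a type and less RNA per cell cannot be told apart. The part of these marker changes in the results below was not tested. The labels say that cells were plated in triplicate and do not name separate cultures of the hairpin lines, so p-values measure the spread between these libraries, which may be technical.

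The inhibitors CISH and SOCS1 fell with sh3, together with IL7R, while JAK1, JAK3, STAT5A and STAT5B rose. That is 7 of the 10 genes called with sh3 against control at an adjusted p under 0.05 in limma, beside 18.6% of all genes tested, 9.36% being higher and 9.19% lower. With sh1 against control 1 of the 10 was called, a fall of JAK3, beside 6.31% of all genes, 2.88% being higher and 3.43% lower. For the mean of both constructs against control 3 of the 10 were called, a rise of STAT5A and falls of CISH and SOCS1, beside 12.7% of all genes, 6.55% being higher and 6.19% lower. The constructs themselves differed in 6 of the 10, with IL7R, CISH and SOCS1 higher and IL2RG, JAK3 and STAT5A lower with sh1 than with sh3. This stands beside 11.4% of all genes, 5.61% being higher and 5.83% lower with sh1. These comparisons share the control libraries or the knockdown libraries and are not independent of each other. Without sh3 C 6 of the 10 were called with sh3, and without control C 4 of the 10.

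**Figure D1:**
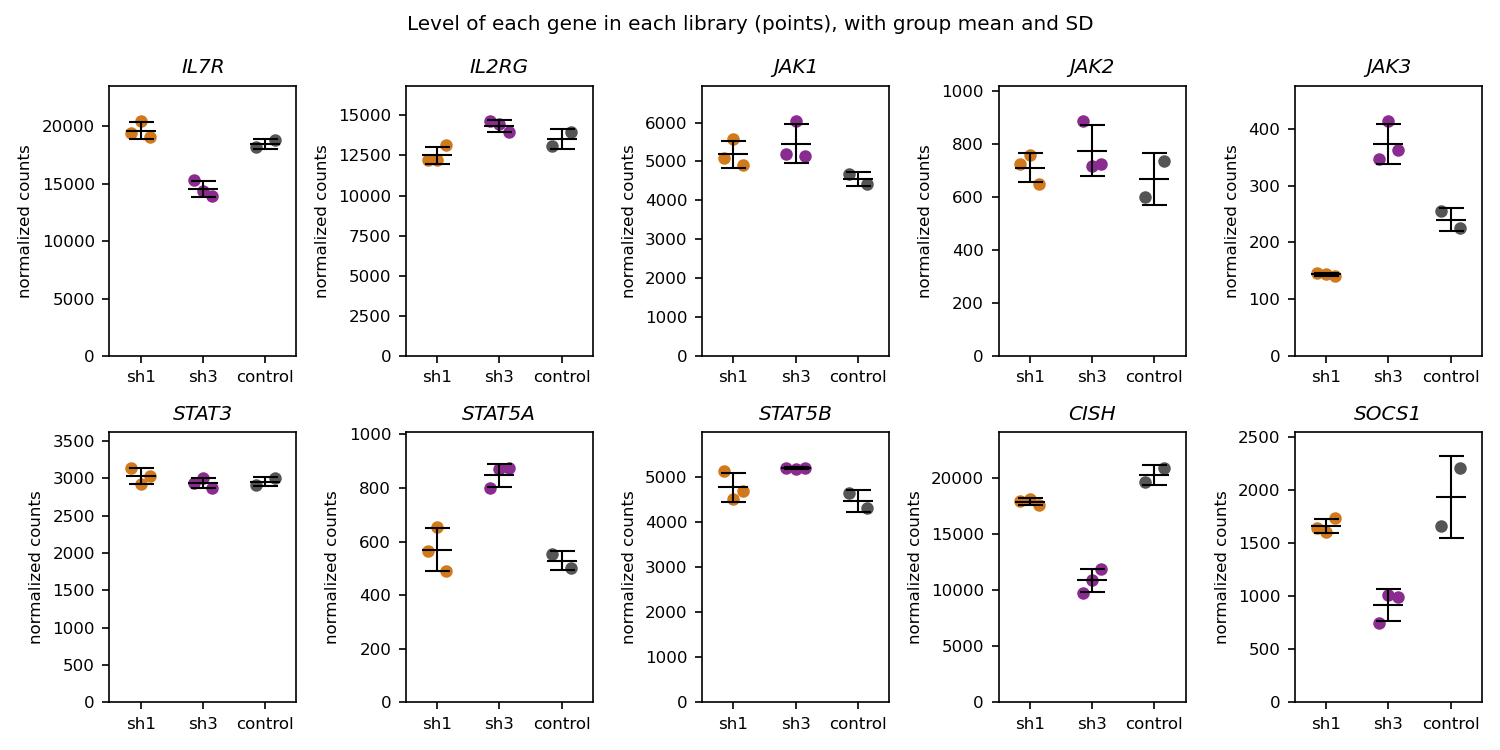
Normalized counts (vertical axes, linear, from 0) of the 10 genes in each library, with sh1, sh3 and control from left to right; points are libraries and bars are the group mean and SD (n = 3, 3 and 2). CISH and SOCS1 sit lowest in the 3 sh3 libraries, STAT5A sits highest there, JAK3 is lowest with sh1 and highest with sh3, and STAT3 overlaps between all groups.

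The promoter of CISH is shown because it is the member whose window holds the motif TTCNNNGAA, which STAT5 dimers are known to bind, and that of SOCS1 because both inhibitors fell with sh3. The windows run from 250 bases before to 50 bases after the RefSeq start on GRCh38.p14, the assembly of the files' build hg38. The CISH window lies at chr3:50611725-50612024 and the SOCS1 window at chr16:11256155-11256454, both read 5′ to 3′ on the minus strand, with each match to the motif in capitals.
CISH: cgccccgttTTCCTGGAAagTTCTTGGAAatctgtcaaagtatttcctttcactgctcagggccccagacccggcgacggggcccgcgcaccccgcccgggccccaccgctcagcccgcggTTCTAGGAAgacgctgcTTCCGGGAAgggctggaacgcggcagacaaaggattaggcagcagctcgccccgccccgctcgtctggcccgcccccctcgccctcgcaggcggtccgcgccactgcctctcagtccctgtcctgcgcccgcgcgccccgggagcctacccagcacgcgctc
SOCS1: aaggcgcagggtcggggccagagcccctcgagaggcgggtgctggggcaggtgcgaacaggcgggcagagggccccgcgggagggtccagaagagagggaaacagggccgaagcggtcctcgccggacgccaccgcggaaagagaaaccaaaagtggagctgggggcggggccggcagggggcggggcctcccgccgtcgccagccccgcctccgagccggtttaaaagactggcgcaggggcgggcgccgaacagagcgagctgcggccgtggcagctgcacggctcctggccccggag
The CISH window held 4 matches, centred 237, 226, 125 and 108 bases before the start. The motif reads the same on both strands, so each match was counted once. Of 35116 RefSeq promoter windows of this length 7.66% held at least 1 match and 0.0199% held at least 4. The SOCS1 window and those of the other members held 0 matches, which says only that these letters are not in these windows. The form with 1 more base between TTC and GAA, which also reads the same on both strands, is in 6.44% of all windows and among the members in 1 window of STAT5A.

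Messenger RNA levels were set side by side per kilobase of the gene's combined GENCODE exons, since a longer transcript gives more fragments. Every value here is such a level, not a change. In the controls the gamma chain gene IL2RG was highest at 4903 ± 228 normalized counts per kilobase, followed by CISH at 3960 ± 178, IL7R at 3049 ± 74.0 and SOCS1 at 1079 ± 217 (SD, n = 2 each). JAK1 at 721 ± 27.7 and STAT5B at 693 ± 37.7 came next and their control libraries overlapped. Below them were STAT3 at 335 ± 6.74, JAK2 at 108 ± 15.9, STAT5A at 91.8 ± 6.19 and JAK3 at 35.3 ± 3.02 (SD, n = 2 each). The kinase that binds the gamma chain was thus the lowest of the 10 messengers, and STAT5B stood well above its paralog STAT5A. With sh3 the order was IL2RG, IL7R, CISH, JAK1, STAT5B, SOCS1, STAT3, STAT5A, JAK2 and JAK3. CISH there was at 2123 per kilobase and overlapped IL7R at 2400, and STAT5A at 147 overlapped JAK2 at 126. With sh1 the order was that of the controls, and overlaps were seen between JAK1 at 820 and STAT5B at 739 and between JAK2 at 115 and STAT5A at 99.1. Per kilobase of the longest annotated transcript instead, the order of the means in the controls was the same but levels moved. IL2RG was then at 6650, CISH at 4015, IL7R at 3995 and STAT3 at 585, so CISH and IL7R were nearly level.

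**Figure D2:**
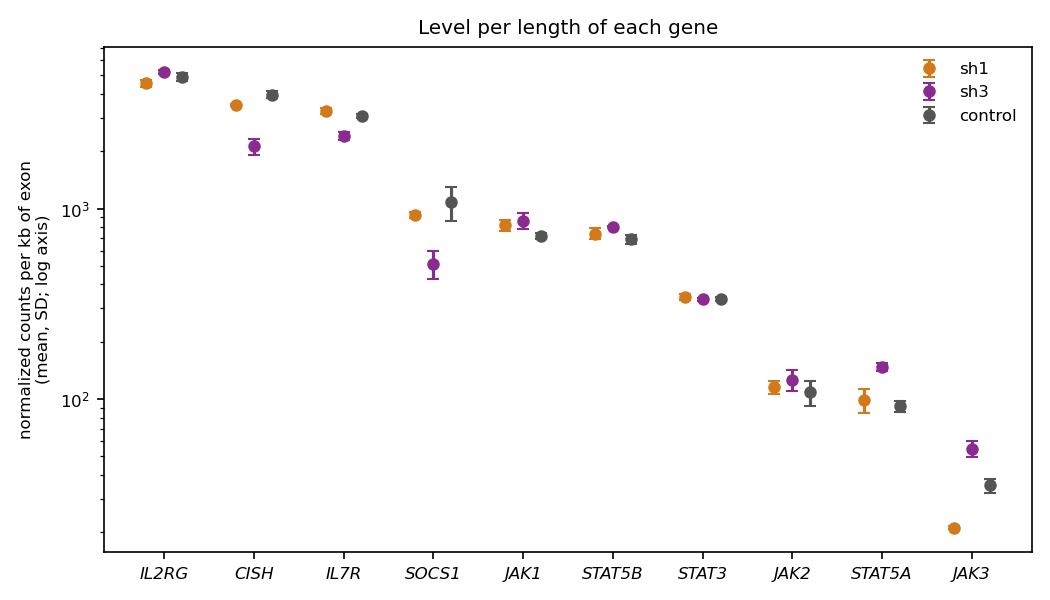
Normalized counts per kilobase of exon (log axis) of the 10 genes with sh1, sh3 and control; points are group means and bars the SD (n = 3, 3 and 2). IL2RG is highest and JAK3 lowest in all 3 groups, and CISH and SOCS1 stand lower with sh3 than in the other groups.

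IL7R, the alpha chain gene (chromosome 5, 35852695 to 35879603, plus strand, GRCh38), was at 19405, 20444 and 19038 normalized counts in the sh1 libraries and at 15328, 14399 and 13901 in the sh3 libraries, against 18162 and 18796 in the controls. The sh3 libraries were all below and the sh1 libraries all above both controls. With sh3 IL7R fell by 21.3%, a log2 change of -0.35 ± 0.052 (SE; limma adjusted p = 0.0012). The sh1 change of 0.087 was not called (95% CI -0.028 to 0.20, adjusted p = 0.36), and the constructs differed by 0.43 ± 0.047 (SE; adjusted p = 0.00014). Over both constructs the change was -0.13 ± 0.047 (adjusted p = 0.090), a mean of values on either side of the controls.

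IL2RG, the gamma chain gene shared with the receptors of IL2, IL4, IL9, IL15 and IL21 (chromosome X, 71107404 to 71112108, minus strand), stood at 12209, 12234 and 13141 with sh1 and at 14639, 14492 and 13935 with sh3, against 13088 and 13979 in the controls. Both constructs overlapped the controls. Neither change against control was called, at -0.11 with sh1 (95% CI -0.22 to -0.00031, adjusted p = 0.22) and 0.085 with sh3 (95% CI -0.026 to 0.20, adjusted p = 0.28). After quantile normalization the rise with sh3 was called (0.15, adjusted p = 0.042). All sh1 libraries were below all sh3 libraries, and that difference of -0.20 ± 0.045 was called (adjusted p = 0.017), a call that ended without sh1 B, sh3 A or sh3 B (-0.19 to -0.18, adjusted p between 0.070 and 0.073) or without a trend in the variance prior (adjusted p = 0.079). AL590764.2, a coding gene annotated over IL2RG on the same strand, shares 49.6% of the 31-base words of IL2RG transcripts, so estimated counts could be divided between them. It held 1.29% of the summed level of the pair with sh1 and 1.58% with sh3, against 1.33% in the controls. The receptor chains thus moved differently between the constructs, IL7R being higher and IL2RG lower with sh1 than with sh3.

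JAK1, the kinase bound to the alpha chain (chromosome 1, 64833229 to 64966504, minus strand), was at 5077, 5568 and 4898 with sh1 and at 5190.02, 6034 and 5134 with sh3, against 4678 and 4429.9 in the controls. All 6 knockdown libraries were above both controls, as in 11.9% of all genes tested. JAK1 rose with sh3 by 0.26 ± 0.077 on the log2 scale (SE; limma adjusted p = 0.039), while 0.18 with sh1 (adjusted p = 0.18) and 0.22 over both constructs (adjusted p = 0.056) were not called. The sh3 call ended without control A, control C, sh3 A or sh3 B (0.18 to 0.30, adjusted p between 0.054 and 0.23) or without the trend (adjusted p = 0.13). Without sh1 C or sh3 C the change over both constructs was called (0.24, adjusted p between 0.042 and 0.050), as it was with a minimum mean of 50 (adjusted p = 0.046) and after rescaling to equal totals (0.24, adjusted p = 0.040). RAVER2, an RNA-binding protein gene that overlaps JAK1 on the opposite strand, was higher with sh1 by 0.51 (adjusted p = 0.0090). With sh3 the RAVER2 change of -0.21 was not called (adjusted p = 0.13). Of the 31-base words of JAK1, 0.255% occur in another gene.

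JAK2, best known as the kinase of the erythropoietin and thrombopoietin receptors (chromosome 9, 4984390 to 5128183, plus strand), was at 724, 760.3 and 651 with sh1 and at 888, 717 and 725 with sh3, against 599.5 and 738 in the controls. The groups overlapped in every comparison. Changes of 0.095 with sh1 (95% CI -0.17 to 0.36, adjusted p = 0.70) and 0.22 with sh3 (95% CI -0.047 to 0.48, adjusted p = 0.24) were not called.

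JAK3, the kinase bound to the gamma chain (chromosome 19, 17824780 to 17848071, minus strand), was at 146, 144 and 141 with sh1 and at 346, 413 and 362 with sh3, against 254.7 and 226 in the controls. Every sh1 library was below and every sh3 library above both controls. JAK3 fell by 40.1% with sh1 (log2 change -0.73 ± 0.12, SE; limma adjusted p = 0.0069) and was higher by 55.6% with sh3 (0.63 ± 0.12, adjusted p = 0.0051). The constructs differed 2.58-fold, by -1.37 ± 0.11 on the log2 scale (adjusted p = 2.0e-05), a larger difference than in any other of the 10 genes. Over both constructs these opposite changes averaged to -0.050 (95% CI -0.29 to 0.19, adjusted p = 0.81). The sh1 call ended without control A (-0.65, adjusted p = 0.060) and the sh3 call without control C (0.55, adjusted p = 0.065).

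STAT3, STAT5A and STAT5B lie next to each other on chromosome 17, with STAT5B from 42199168 to 42276707 on the minus strand, STAT5A from 42287547 to 42311943 on the plus strand and STAT3 from 42313324 to 42388568 on the minus strand. The intervals between them are 10.84 and 1.381 kilobases. Their messengers did not move alike with sh3.

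STAT5A was at 566, 654 and 491 normalized counts with sh1 and at 799, 871 and 876 with sh3, against 554 and 503 in the controls. The sh3 libraries were all above the controls and all above the sh1 libraries, while sh1 overlapped the controls. STAT5A rose by 60.6% with sh3 (log2 change 0.68 ± 0.11, SE; limma adjusted p = 0.0022), against 0.10 with sh1 (95% CI -0.15 to 0.35, adjusted p = 0.65), and the constructs differed by -0.58 ± 0.10 (adjusted p = 0.0037). Over both constructs the rise of 0.39 ± 0.10 (adjusted p = 0.028) missed the threshold without sh3 B, sh3 C, control A or control C (0.32 to 0.46, adjusted p between 0.050 and 0.25) and without the trend (adjusted p = 0.088).

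STAT5B, the more abundant paralog, was at 5119.9, 4496 and 4686 with sh1 and at 5197, 5164 and 5195 with sh3, against 4639 and 4296 in the controls. Its sh3 libraries lay above both controls and above all sh1 libraries, whose values overlapped the controls. The rise with sh3 was 16.1% (0.22 ± 0.060 on the log2 scale, SE; limma adjusted p = 0.030) and ended without sh3 A, sh3 B, sh3 C or control C (0.16 to 0.22, adjusted p between 0.062 and 0.24) or the trend (adjusted p = 0.095). The sh1 change of 0.093 (adjusted p = 0.41) and that over both constructs of 0.15 (adjusted p = 0.083) were not called. The difference between the constructs of -0.12 (95% CI -0.24 to -0.0052, adjusted p = 0.17) was called without sh1 A (-0.18, adjusted p = 0.038). The paralogs share 11.8% of the 31-base words of STAT5A and 10.6% of those of STAT5B, so their division by the quantifier is uncertain. Their sum, which does not depend on the division between them, was 5338 ± 302 with sh1 and 6034 ± 37.3 with sh3 (n = 3 each, SD), against 4995.6 ± 278 in the controls (SD, n = 2). STAT5A made up 10.7% ± 1.73 of that sum with sh1 and 14.1% ± 0.639 with sh3, against 10.6% ± 0.124 in the controls.

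STAT3, used by receptors of the IL6 family and by that of IL21, was at 3139.8, 2918 and 3035 with sh1 and at 2939, 3003 and 2874 with sh3, against 2912 and 2996 in the controls. Its libraries overlapped between all groups, and its changes were 0.037 with sh1 (95% CI -0.079 to 0.15; limma adjusted p = 0.73) and -0.0076 with sh3 (95% CI -0.12 to 0.11, adjusted p = 0.94). All of these bounds lay nearer to 0 than the sh3 changes of STAT5A and STAT5B.

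CISH, which encodes an SH2 protein that binds activated cytokine receptors (chromosome 3, 50606490 to 50611831, minus strand), was at 17944, 18123 and 17532 with sh1 and at 9773, 10932 and 11848 with sh3, against 19598 and 20887 in the controls. All 6 knockdown libraries were below both controls, as in 11.4% of all genes tested, and the sh3 libraries were far below those with sh1. CISH fell by 46.4% with sh3 (log2 change -0.90 ± 0.069, SE; limma adjusted p = 1.3e-05) and was 11.7% below control with sh1, which was not called (-0.18 ± 0.069, adjusted p = 0.15). The fall over both constructs was -0.54 ± 0.062 (adjusted p = 0.00037), and the constructs differed by 0.72 ± 0.062 (adjusted p = 3.1e-05). MAPKAPK3, a kinase gene of the p38 pathway, overlaps exons of CISH on the opposite strand, and 3.64% of the 31-base words of CISH occur in another gene. MAPKAPK3 was at 11409 ± 224 with sh1 and 8624 ± 309 with sh3 (n = 3 each, SD), against 10938 ± 108 in the controls (SD, n = 2), and its own fall with sh3 was -0.34 ± 0.046 (SE; adjusted p = 0.00055). The libraries are strand-specific, and the sources used here do not say whether the authors' quantification used the strand.

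SOCS1, which encodes an inhibitor that binds JAK kinases directly (chromosome 16, 11254405 to 11256200, minus strand), was at 1646, 1611 and 1741 with sh1 and at 748, 1016 and 996 with sh3, against 1663 and 2213 in the controls. The sh3 libraries were all below the controls, sh1 overlapped them, and control C stood 1.33-fold above control A. SOCS1 fell by 52.5% with sh3 (log2 change -1.07 ± 0.14, SE; limma adjusted p = 0.00044), the largest change against control among the 10 genes. The sh1 change of -0.20 was not called (95% CI -0.51 to 0.097, adjusted p = 0.42), and the constructs differed by 0.87 ± 0.12 (adjusted p = 0.00090). Over both constructs SOCS1 fell by 0.64 ± 0.12 on the log2 scale (adjusted p = 0.0075). Leaving out control C ended that call (-0.43, adjusted p = 0.14), as did leaving out the trend (adjusted p = 0.062). None of the 31-base words of SOCS1 occurs in another gene.

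**Figure D3:**
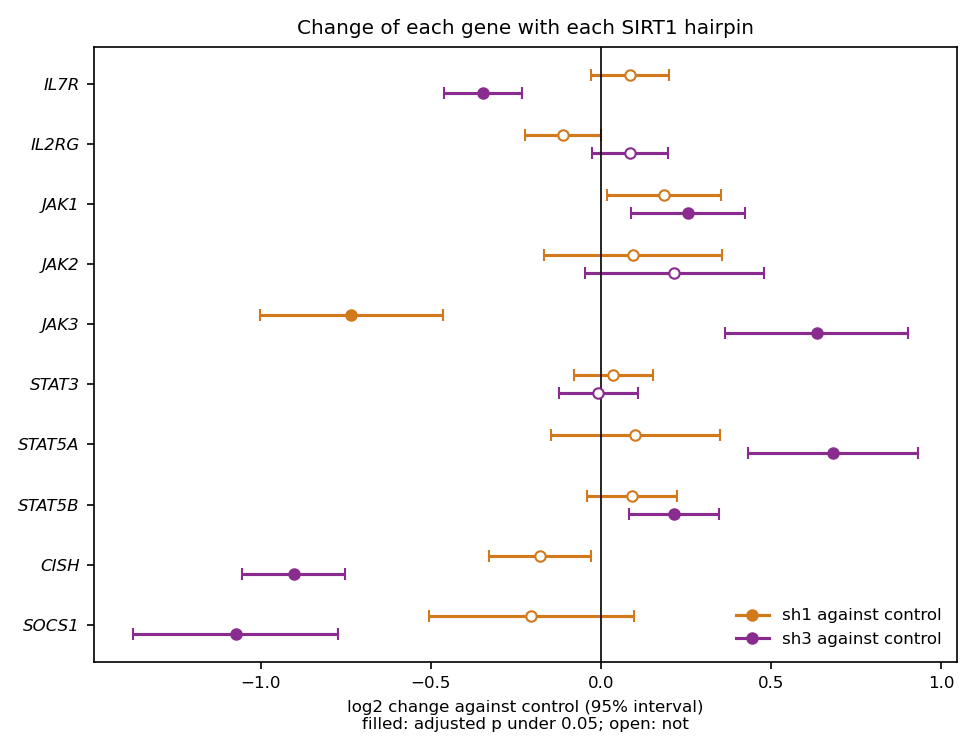
Log2 changes (horizontal axis) of the 10 genes with sh1 against control and with sh3 against control, with 95% confidence intervals from limma; filled points passed an adjusted p of 0.05. Filled points are 7 for sh3, with JAK3 at 0.63 and SOCS1 at -1.07, and 1 for sh1, JAK3 at -0.73.

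The sh3 falls of IL7R, CISH and SOCS1 and the sh3 rise of STAT5A kept their calls under every alternative that was run, also without sh3 C and without either control, as did the fall of CISH over both constructs. The groups did not overlap in 7 of the 10 genes with sh3 against control, beside 49.8% of all genes tested, with 4 of them higher beside 24.8% and 3 lower beside 25.1%. With sh1 this held for 4 of 10 beside 38.2%, 2 of them higher beside 19.3% and 2 lower beside 18.9%. For all 6 knockdown libraries against the controls it held for 2 of 10, JAK1 and CISH, beside 23.2%. Between sh1 and sh3 it held for 7 of 10 beside 30.5%, 3 of them higher with sh1 and 4 lower, each beside 15.2%. The median size of the log2 change with sh3 was 0.30 over the 10 genes and 0.16 over all genes tested, and with sh1 it was 0.11 over the 10 and 0.13 over all. The median signed change with sh3 was 0.15 over the 10, since rises and falls offset each other, and 0.00034 over all genes.

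Likeness to IL7R and SOCS1 was measured as Pearson's r of the log2 values over the 8 libraries, among 11398 genes with a mean of at least 50. ZNF718 (r = 0.991) and SRBD1 (r = 0.983) were most like IL7R. DEGS1 (r = 0.992), METRN (r = 0.988) and OSM (r = 0.988) were most like SOCS1, the gene of the 10 with the largest called change over both constructs. The 8 points share 3 groups, and the values are given as a description.

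Other genes of the pathway were read from 7 textbook lists of 91 symbols, of which 83 were in the table and 77 were tested. The counts called in each list stand beside shares over all genes of 6.55% higher and 6.19% lower over both constructs, 2.88% and 3.43% with sh1, and 9.36% and 9.19% with sh3. Of 7 cytokine genes of the common gamma chain family 2 were in the table and 1, IL15, was tested, at 56.3 ± 25.1 with sh1 and 24.4 ± 2.68 with sh3 (n = 3 each, SD), against 32.3 ± 1.04 in the controls (SD, n = 2). Among 13 tested textbook STAT5 targets other than CISH and SOCS1, SOCS2 being counted here and among the inhibitors below, 2 were higher and 5 lower over both constructs, 1 and 2 with sh1, and 2 and 4 with sh3. With each library left out in turn, the number lower ranged between 2 and 5 over both constructs, between 0 and 2 with sh1 and between 2 and 5 with sh3. The median log2 change of the list was -0.032 over both constructs, beside -0.0022 over all genes.

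PIM1, a survival kinase and a classical STAT5 target, was at 10185 ± 125 with sh1 and 5880.4 ± 504 with sh3 (n = 3 each, SD), against 11605 ± 607 in the controls (SD, n = 2). With sh3 it fell by 0.98 ± 0.065 on the log2 scale (SE; limma adjusted p = 4.5e-06), and its sh1 change of -0.19 was not called (adjusted p = 0.12). OSM, the oncostatin M cytokine gene, was at 668 ± 80.4 with sh1 and 223 ± 34.2 with sh3, against 840.3 ± 228 in the controls, and with sh3 it fell by 1.89 ± 0.17 (adjusted p = 5.0e-05). Like CISH and SOCS1, both of these targets were lower with sh3 than with sh1, PIM1 by 0.80 ± 0.058 (adjusted p = 1.2e-05) and OSM by 1.58 ± 0.16 (adjusted p = 9.0e-05). Targets also rose: CCND3, a D-type cyclin gene that NOTCH1 also drives, was at 36938 ± 395 with sh1 and 43459 ± 1039 with sh3, against 31978 ± 535 in the controls (0.33 ± 0.037 over both constructs, adjusted p = 0.00036). CCND3 was also called with sh1 (0.21, adjusted p = 0.016), a call that ended without sh1 B. MYC, the growth-promoting factor, changed by -0.37 ± 0.074 over both constructs (adjusted p = 0.0093), which ended without control C (-0.23). MYC was called with sh1 (-0.34, adjusted p = 0.033) and with sh3 (-0.39, adjusted p = 0.0082), at -0.21 and -0.25 without control C. Its sh1 call ended without sh1 B or sh3 B, and it was not called between the constructs (0.043, adjusted p = 0.77). Also called over both constructs were PIM2, higher, and PIM3 and CCND2, lower, named after their values were seen. These 3 calls ended without either control, that of PIM3 also without sh1 B or sh3 A, and that of CCND2 without any 1 of the libraries but sh1 A (-1.74 to -0.86, adjusted p between 0.053 and 0.33). CCND2 stood at a mean of 24.9 or less in every group. BCL2, the survival gene that IL7 maintains in T cells and likewise named after its values were seen, was at 6951 ± 344 with sh1 and 8472 ± 371 with sh3, against 7729 ± 755 in the controls. It was called between sh1 and sh3 (-0.29 ± 0.059, adjusted p = 0.0099), a call that ended without the trend (adjusted p = 0.067). Its changes against control of -0.15 with sh1 (adjusted p = 0.21) and 0.13 with sh3 (adjusted p = 0.18) were not called. Other survival genes of the list, also named after their values were seen, went both ways between sh1 and sh3. MCL1 was lower with sh1 (-0.19, limma adjusted p = 0.016) and BCL2L1 was higher with sh1 (0.16, adjusted p = 0.020).

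Of 17 tested negative regulators other than CISH and SOCS1, 3 were higher and 0 lower over both constructs, 1 and 0 with sh1, and 5 and 0 with sh3. With each library left out in turn, the number higher ranged between 0 and 3 over both constructs, 0 and 1 with sh1, and 2 and 5 with sh3, and the number lower with sh3 between 0 and 2. Over both constructs these were PTPRC, the CD45 phosphatase that acts on JAKs (0.37 ± 0.070, SE; limma adjusted p = 0.0069), the STAT inhibitor PIAS1 (0.22, adjusted p = 0.016) and the ubiquitin ligase CBL (0.32, adjusted p = 0.016). PTPRC was at 3440.5 ± 158 with sh1 and 4304 ± 401 with sh3, against 2979.8 ± 185 in the controls. Without control C the calls over both constructs of PTPRC (0.30) and CBL (0.22) ended, and that of PIAS1 ended without either control (0.21 to 0.23). CBL was also called with sh1 (0.33, adjusted p = 0.039) and with sh3 (0.31, adjusted p = 0.022). Its sh1 call ended without any 1 of the sh1 libraries, sh3 A or control C (0.23 to 0.36). Its sh3 call ended without sh3 A, sh3 C or control C (0.22 to 0.32). SOCS2, the most abundant tested inhibitor of its family in the list, was at 10388 ± 161 with sh1 and 8847 ± 182 with sh3, against 9807 ± 625 in the controls, and was lower with sh3 than with sh1 by 0.23 on the log2 scale. The falls of CISH and SOCS1 with sh3 thus stood beside rises of PTPRC, which also rose with sh3 (0.53 ± 0.078, adjusted p = 0.0011).

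Among 15 tested genes of other receptors that use JAKs, 0 were called by limma over both constructs or with sh1, where 1 and 3 had an unadjusted p under 0.05, and 3 fell with sh3. These were IFNGR1, the ligand-binding chain of the interferon gamma receptor (-0.41, limma adjusted p = 0.0020), the IL4 receptor gene IL4R (-0.32, adjusted p = 0.047) and the shared IL6 family chain gene IL6ST (-1.22, adjusted p = 0.036), all named after their values were seen. IFNAR1, a chain of the type I interferon receptor and the most abundant gene of the list, was at 2727 ± 65.0 with sh1 and 3087 ± 121 with sh3, against 2879.5 ± 114 in the controls (0.011 over both constructs, adjusted p = 0.92). The calls of IL4R and IL6ST ended without either control, IL4R also without sh1 B, sh1 C, sh3 B or sh3 C (-0.41 to -0.22, adjusted p between 0.052 and 0.32) and IL6ST without sh3 A or sh3 B (-1.56 to -0.88, adjusted p between 0.066 and 0.23). Of the other 5 JAK and STAT genes limma called 0 against control. At an unadjusted p under 0.05 there were 0 over both constructs, 0 with sh1 and 3 with sh3, and STAT6 was lower with sh1 than with sh3 (-0.15, adjusted p = 0.041). That call ended in 7 of the 8 fits that left out a library (-0.17 to -0.12, adjusted p between 0.051 and 0.17). STAT6, which serves the IL4 receptor, was at 5543 ± 87.4 with sh1 and 6155 ± 217 with sh3, against 5616 ± 89.8 in the controls. Of 15 tested genes of the phosphoinositide 3-kinase branch, 3 were higher over both constructs (PIK3CA, PIK3CB and GAB2), 0 were called with sh1 (6 at an unadjusted p under 0.05), and 4 were higher and 1, the adaptor gene IRS1 (-0.52, adjusted p = 0.0016), was lower with sh3. The adaptor gene was named after its values were seen. With each library left out in turn, the number higher ranged between 0 and 3 over both constructs, 0 and 1 with sh1, and 1 and 4 with sh3. PIK3CA, the p110 alpha catalytic subunit gene, was at 2589 ± 201 with sh1 and 3124 ± 121 with sh3, against 2149 ± 355 in the controls, and its call over both constructs (0.41, adjusted p = 0.0096) ended without control C (0.24, adjusted p = 0.16). So did those of PIK3CB and GAB2 without either control, and that of GAB2 also without sh1 B, sh3 A or sh3 B. PIK3CD, the leukocyte catalytic subunit gene, was at 12162 ± 390 with sh1 and 12232 ± 338 with sh3, against 11301 ± 438 in the controls, and was not called (0.11 over both constructs, adjusted p = 0.11).

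Transcription factors known to act on the IL7R gene were called higher in 3 of 13 cases and lower in 0 over both constructs, higher in 3 and lower in 0 with sh1, and higher in 3 and lower in 2 with sh3. With each library left out in turn, the number higher ranged between 1 and 4 over both constructs, 0 and 2 with sh1, and 2 and 5 with sh3, and the number lower with sh3 between 0 and 2. GATA3, a master regulator of early T cells, was at 3133 ± 51.9 with sh1 and 4324 ± 255.4 with sh3, against 2915 ± 48.3 in the controls, a rise over both constructs of 0.34 ± 0.051 (SE; limma adjusted p = 0.0023). NR3C1, the glucocorticoid receptor gene, was at 5679 ± 389 with sh1 and 6756 ± 233 with sh3, against 4989 ± 62.7 in the controls (0.31 ± 0.053, adjusted p = 0.0042; without control C 0.30, adjusted p = 0.065). GFI1, a repressor of IL7R, rose by 0.25 over both constructs (adjusted p = 0.031), with loss of the call without sh3 A, sh3 B or either control (0.18 to 0.31, adjusted p between 0.056 and 0.29). NOTCH1, an activator of IL7R in T cells, was at 10130.4 ± 1161 with sh1 and 8339 ± 567 with sh3, against 10517 ± 331 in the controls, and fell with sh3 (-0.34 ± 0.084, adjusted p = 0.018). That call ended without control A, control C, sh3 A or sh3 B (-0.37 to -0.30, adjusted p between 0.059 and 0.099). RUNX3 moved in opposite directions and was named after its values were seen, with 910 ± 79.7 with sh1 and 346 ± 60.6 with sh3, against 541.5 ± 124 in the controls. Its changes were 0.76 with sh1 (adjusted p = 0.021) and -0.64 with sh3 (adjusted p = 0.019), lost without sh1 A or control C for sh1 (0.53 to 0.70, adjusted p between 0.050 and 0.20) and without control A for sh3 (-0.41, adjusted p = 0.17). FOXO1, an activator of IL7R named after its values were seen, was higher with sh1 (0.42, adjusted p = 0.040), a call that ended whichever of the 8 libraries was left out (0.35 to 0.48, adjusted p between 0.052 and 0.25).

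**Figure D4:**
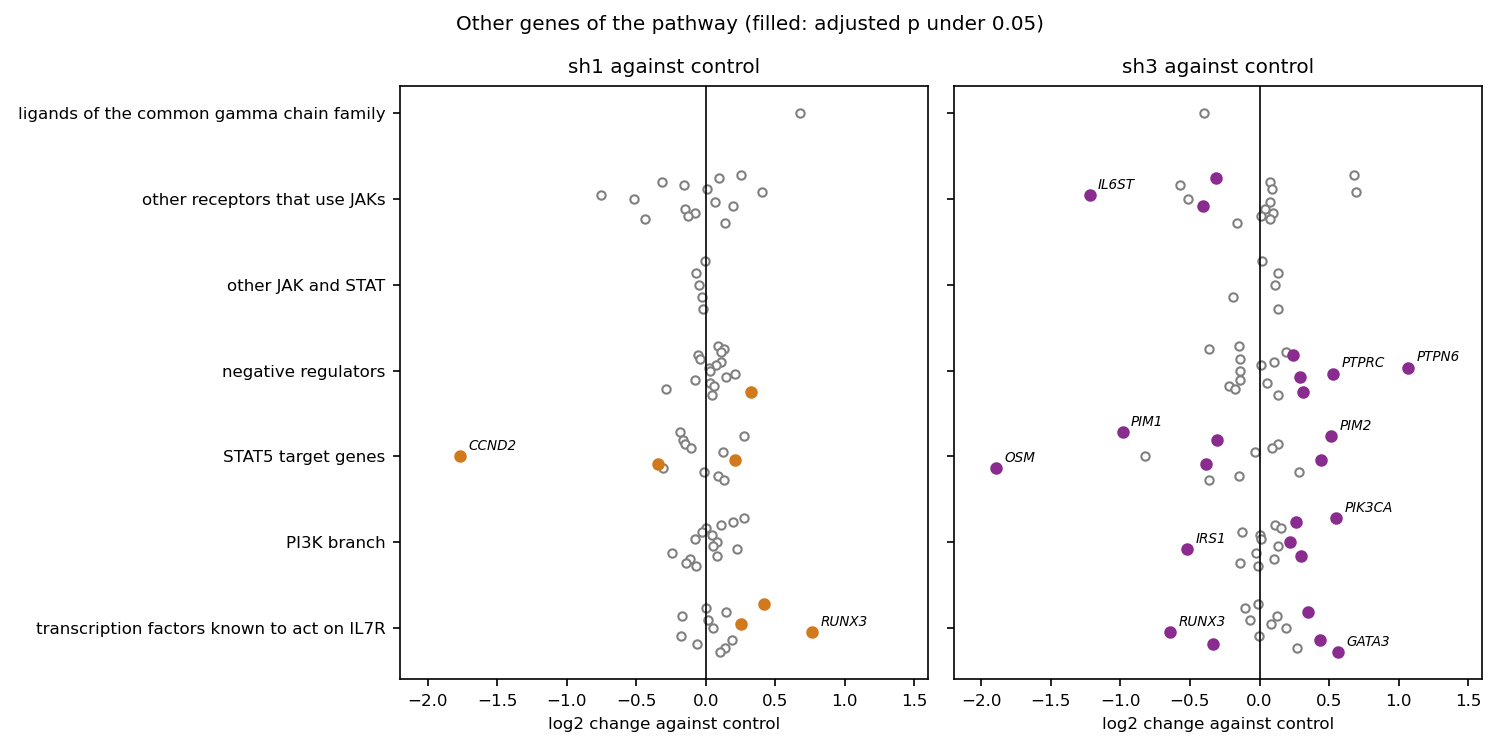
Log2 changes (horizontal axis) of each tested gene of the 7 lists, with sh1 against control and with sh3 against control; filled points passed an adjusted p of 0.05 in limma. Among the STAT5 targets 2 points are called higher and 4 lower with sh3, and 0 of the other JAK and STAT genes are called with either construct.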

How the data were processed

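The deposited values are a signal that the authors gave as normalized counts for each gene symbol. Per the submitters' processing notes, kallisto 0.44.0 and DESeq were used with hg38, while the annotation and filters behind the table are not stated there. A range of steps was tried for each library, and with the best of them 30.3% to 45.5% of its low values came within 0.02 of whole multiples. Whole reads could thus not be recovered, and no test for counts was run. Values were analysed as log2(value + 1), which understates changes of low genes, for 13885 genes (mean at least 10). A limma 3.58.1 model (R 4.3.3) held 3 group means, 5 residual degrees of freedom and a variance prior with a trend. Tests were two-sided with Benjamini-Hochberg adjustment over those genes, and the threshold was 0.05. The procedure was tested on simulated data. Coordinates come from GENCODE 29 on GRCh38 and promoters from RefSeq. A control B library was not analysed here. The members, lists and tests were chosen with earlier results of these data known. The named list genes are up to 4 per list called over both constructs, by smallest p, or where fewer passed also the most abundant. Others are marked as named after their values were seen. A few genes are left unnamed here but stay in the counts.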

Additional observations from a re-analysis of the deposited data

Results flagged for a closer look

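The constructs sh1 and sh3 were each set against the same controls, and a direct test of their difference in limma was past an adjusted p of 0.05 for 6 of the 10 genes. The log2 difference of sh1 minus sh3 was 0.43 for IL7R, 0.72 for CISH and 0.87 for SOCS1, higher with sh1. It was -0.20 for IL2RG, -1.37 for JAK3 and -0.58 for STAT5A, lower with sh1. The number of replicates, 3 and 2 per group, was too small for a check of single outlying libraries.

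Apart from MCL1 and BCL2L1, given above, the same test was past the threshold for 19 further pathway genes among those named. Higher with sh1 were OSM (1.58), RUNX3 (1.4), PIM1 (0.80), the adaptor IRS1 (0.75), IFNGR1 (0.60), FOXO1 (0.43), IL4R (0.41), NOTCH1 (0.28) and SOCS2 (0.23). Lower with sh1 were the phosphatase gene PTPN6 (-1.05), which stood at a mean of 45.2 normalized counts or less in every group, GATA3 (-0.46), PTPRC (-0.32), SOCS5 (-0.30), BCL2 (-0.29), NR3C1 (-0.25), CCND3 (-0.23), GAB2 (-0.22), the interferon receptor chain IFNAR1 (-0.18) and STAT6 (-0.15). SIRT1 itself was at 1299.7 ± 36.5 normalized counts in sh1 libraries and 1165 ± 60.1 in sh3 libraries (n = 3 each, SD), a log2 difference of 0.16 (limma adjusted p = 0.14). Of these, RUNX3, IRS1, IFNGR1, FOXO1, IL4R, PTPN6, SOCS5 and BCL2 were named after their values were seen. The difference in STAT6 missed the threshold in all but 1 of the fits that left out a library (-0.17 to -0.12, adjusted p between 0.051 and 0.17). The calls of BCL2, PIM1, OSM and SOCS2 between the constructs held without any 1 of the sh1 or sh3 libraries. For the other genes called here such fits are not given. Nearest the threshold among them were IFNAR1 (limma adjusted p = 0.039), NOTCH1 (adjusted p = 0.035), PTPN6 (adjusted p = 0.031) and GAB2 (adjusted p = 0.025). What sets the constructs apart was not tested.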

How the results depend on the processing

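Of 670 changes of the 10 genes recomputed under the alternatives, 626 kept their direction and their side of the threshold, 24 were no longer called, 6 became called and 14 turned their direction, and none of the 14 was called. Without a trend in the variance prior 1 of the 10 genes was called over both constructs, and of all genes 744 were called over both constructs, 236 with sh1, 1531 with sh3 and 968 between the constructs. In that fit the calls over both constructs of MYC, PTPRC, PIAS1, CBL, PIK3CA, GAB2, GFI1, PIM2 and PIM3 ended (adjusted p between 0.053 and 0.135). With sh1 549 genes were called with the letter as a replicate block and 462 in a fit of the compared groups alone. Deviations of libraries from their group means correlated at -0.062 to 0.058 for the same letter and at -0.058 to 0.060 for different letters. With 3 and 2 libraries per group these values do not decide whether the letters mark a shared batch. Under that replicate block 2 of the 10 genes were called over both constructs, STAT5A being at 0.33 (adjusted p = 0.070), and the counts of members called in the other comparisons were the same.

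With each library left out in turn, the members called ranged over 1 to 4 for both constructs, 0 to 1 for sh1 and 4 to 7 for sh3. Genes called ranged over 339 to 1898 for both constructs, 159 to 782 for sh1, 860 to 2931 for sh3 and 925 to 1770 between the constructs. The lowest counts of all genes against control came without control C, where control A is assumed to vary like the other groups.

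Directions turned for values near 0. Over both constructs IL2RG was at 0.0062 after rescaling to equal totals and 0.046 after quantile normalization, which also gave 0.0097 for JAK3, -0.011 for STAT3 and -0.012 for IFNAR1. STAT3 with sh3 was at 0.014 after rescaling. With libraries left out, ranges over both constructs were -0.060 to 0.034 for IL2RG, -0.14 to 0.037 for JAK3, -0.0060 to 0.035 for STAT3, -0.013 to 0.33 for IL15, -0.029 to 0.052 for IFNAR1 and -0.097 to 0.034 for SOCS2. With sh1 they were -0.055 to 0.24 for JAK2, -0.0018 to 0.20 for STAT5A and -0.41 to 0.0020 for SOCS1. STAT3 with sh3 ranged over -0.028 to 0.013, and JAK1 between the constructs over -0.12 to 0.0032. The causes were not tested beyond the libraries named. Groups of 3 and 2 libraries limit what can be called, and genes under about 10 normalized counts rest on few reads.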
